A study of Mus musculus with 6 samples.

Results

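The whole course of a mouse dendritic cell (DC) culture was followed here as the net difference between mature DC and pre-DC, the earliest stage sampled. The comparison uses the 2 arrays of mature DC and the 2 arrays of pre-DC, 4 of the 6 arrays in the series, and draws on the 2 arrays of immature DC only to say at which step a net change arose or was undone. Mature DC were bone marrow cells of C57BL/6 mice that had been grown with 20 ng/ml GM-CSF, collected as semi-adherent immature DC at day 7 and then matured over another 48 h, with IL-1b and TNF-a present at a dose of 10 ng/ml for each. Pre-DC were cells of the same kind of culture at day 2. Each stage had 1 array from cells given SB202190, an inhibitor of the p38 MAP kinase, which the labels put at 1.5 mM (the unit is as labelled and could not be verified), and 1 array from cells given 0.1% DMSO, its solvent. All cultures had GM-CSF, and it is not stated whether the inhibitor was kept in the medium through maturation, nor whether the cultures were independent. Whole 2-day cultures and the semi-adherent fraction of day 7 are different samples of a culture, so the stage and the fraction collected cannot be told apart.

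GM-CSF drives bone marrow progenitors into several myeloid lineages, granulocytes among them, and the semi-adherent cells that build up are a mixture of DC-like and macrophage-like cells. Immature DC take up material from their surroundings and break it down in endosomes and lysosomes. Inflammatory signals such as TNF-a and IL-1b act through NF-kB and turn them into mature DC, which stop taking up antigen, load and display peptides on MHC molecules, put costimulatory molecules on their surface and move towards lymph nodes by way of the receptor CCR7. Maturation is also known to go with an exit from the cell cycle.

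The arrays were single-colour Illumina bead arrays of 45281 probes. Between 14623 and 15328 probes per array were detected (detection p under 0.01), and the median raw intensity per array lay between 120.5 and 146.2. Levels below are log2 intensities after background correction and quantile normalization, and each gene is represented by its brightest probe, so a level may be set against the level of the same gene on another array but not against that of another gene. Over the genes tested, the log2 levels of the mature pair correlated at 0.987 and those of the pre-DC pair at 0.993, against 0.816 between the mature and the pre-DC array with SB202190 and 0.829 between those with DMSO. These correlations are across genes, which are not independent replicates.

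Of the 8971 genes tested, which had a detection p under 0.01 on 2 or more of the 4 arrays, 2613 were higher in mature DC (29.1%) and 2589 were lower (28.9%) at an adjusted p under 0.05 (limma with treatment as a block, Benjamini-Hochberg over all genes tested), which is 58% in either direction. Net differences of at least 2-fold were called for 1457 higher genes (16.2%) and 1389 lower genes (15.5%), and differences of at least 16-fold for 73 higher and 47 lower genes. The median net difference over all genes was -0.01 on the log2 scale and the median size was 0.63. With this much of the transcriptome called, a gene list is read below against the 29.1% and 28.9%, and the sizes say more than the calls. The fit has 1 residual degree of freedom among its 4 arrays and borrows its spread from all genes. That degree of freedom is the difference in net change between the SB202190 pair and the DMSO pair. An exact permutation test of 2 against 2 arrays could not go below p = 0.333.

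**Figure D1:**
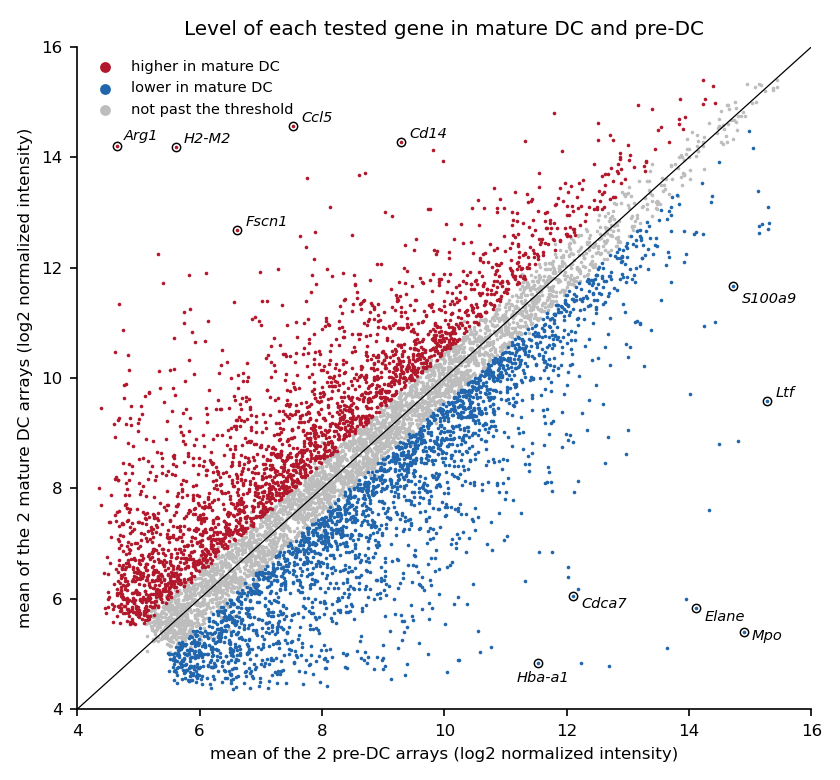
Mean log2 level of each gene tested in mature DC (vertical axis) against pre-DC (horizontal axis), with the called genes coloured by direction and 11 genes with large net differences ringed and named. Arg1, H2-M2, Fscn1 and Ccl5 stand far above the diagonal line of equal levels, and Mpo, Elane, Hba-a1 and Cdca7 far below it.

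The label of mature DC was first set against marker genes. All 8 genes of a mature DC list were higher, with a median net log2 difference of 4.58. Fscn1, the actin-bundling protein fascin of DC dendrites, had log2 levels of 13.33 with SB202190 and 12.04 with DMSO in mature DC, against 5.48 with SB202190 and 7.73 with DMSO in pre-DC. Cd83, a surface protein of mature DC, had 13.53 with SB202190 and 12.66 with DMSO in mature DC, against 7.02 with SB202190 and 9.24 with DMSO in pre-DC. The groups were far apart for both, but the pre-DC arrays were themselves apart, and under moderation with a trend and robust to outliers neither passed (adjusted p = 0.064 for Fscn1 and 0.0717 for Cd83, limma). Of 7 conventional DC genes tested, 6 rose, among them the DC transcription factors Zbtb46 (log2 difference 1.76, SE 0.23) and Irf4 (2.18, SE 0.15) and the integrin Itgax, which encodes CD11c and was at least 2.53-fold higher. Cd209a, a lectin of monocyte-derived DC, went the other way and was at least 2.79-fold lower. Flt3, the receptor for the DC growth factor FLT3L, was not detected on any of the 6 arrays.

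Here and below, "at least" marks a gene that was not well above background on either array of the lower stage. The brighter stage's mean is then divided by the dimmest detected signal of the array, or by the gene's own signal where that was higher, array by array. Some genes given with a plain log2 difference were above background on 1 of 2 arrays of the lower stage, which is said where their levels are given. This also held for Zbtb46, Bmf, Apoe and Gsta3 in pre-DC and for Cxcr2, Itga2b, Bcl2, Fcer1a and Fcer2a in mature DC. Markers of macrophages rose beside those of DC, 6 of 7 tested with a median of 3.54, and their summed intensity was 12534 and 14526 on the mature arrays, against 2410 and 2549 on the pre-DC arrays. All 4 monocyte genes tested rose as well, though Ccr2 and F13a1 were highest in immature DC. In bulk RNA, more cells of a type and more RNA of its genes per cell cannot be told apart, and the same holds for every fall described below.

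The largest net gains came from genes of several kinds. Arg1, which encodes arginase 1, was detected on neither pre-DC array, had log2 levels of 13.96 and 14.45 in mature DC and was at least 434-fold higher, the largest bound among the 386 genes called higher that were detected on both mature and neither pre-DC array. H2-M2, a nonclassical MHC class I gene, had 14.02 with SB202190 and 14.36 with DMSO in mature DC, against 4.73 with SB202190 and 6.49 with DMSO in pre-DC, where only the DMSO array was above background (log2 difference 8.58, SE 0.34, adjusted p = 9.82e-05, limma). Among genes detected on all 4 arrays, the net log2 difference was largest for Ccl5, a chemokine for T cells (7.04, SE 0.30, adjusted p = 0.000109). It was followed by Fscn1 (6.07), Cav1 (6.04), which encodes the caveolar coat protein caveolin 1, Cxcl16 (5.88), a membrane-bound chemokine, and Ctsa (5.81), the lysosomal carboxypeptidase cathepsin A. Further down came Saa3 (5.02), an acute phase protein, Gstm2 (4.94), a glutathione transferase, Aldoc (4.93), an aldolase, Grasp (4.90), a scaffold protein of receptor trafficking, Rgs1 (4.81), a brake on G protein signalling, and Fn1 (4.77), fibronectin. Among genes gained over background were also Mgarp (at least 59.8-fold), a mitochondrial protein, Ceacam15 (at least 32.9-fold), Fblim1 (at least 31.5-fold), a protein of cell-matrix contacts, Best1 (at least 26.2-fold), an anion channel, Sdc1 (at least 21.5-fold), the cell surface proteoglycan syndecan 1, Arc (at least 21.9-fold), a protein known from synapses, and Strip2 (at least 19.5-fold).

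Genes of costimulation and the TNF family rose as a group: 14 of 15 tested were higher and none was lower, with a median of 2.67. The list holds ligands that carry the second signal to T cells, but also receptors such as Tnfrsf9 and inhibitory ligands. Tnfrsf9, which encodes 4-1BB, had levels of 12.39 and 12.09 in mature DC, against 4.78 with SB202190 (below background) and 5.85 with DMSO in pre-DC (log2 difference 6.93, SE 0.33, adjusted p = 0.000125, limma). Cd86, a ligand of CD28, stood at 13.37 and 12.66 in mature DC, against 8.87 and 9.20 in pre-DC (log2 difference 3.98, SE 0.27), and its partner Cd80 at 10.86 and 10.07, against 7.78 and 7.99 (2.58, SE 0.26). The mature arrays lay above the pre-DC arrays for all 3. Cd40, the receptor through which helper T cells license DC, gained 3.04 (SE 0.25). Cd200 (at least 18.8-fold), whose product inhibits myeloid cells, and the TNF family ligands Cd70 (at least 10-fold) and Tnfsf4, or OX40 ligand (at least 5.91-fold), came up from below background. Ligands of the inhibitory receptor PD-1 rose alongside, Cd274 by 2.67 and Pdcd1lg2 by 3.35. Icosl, the ligand of ICOS, was the member that did not pass (0.19, adjusted p = 0.35).

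Of 13 genes linked to migration and the cytoskeleton of mature DC, 9 were higher and 1 was lower. Ccr7, whose product steers cells along lymphatic chemokines, had levels of 12.10 with SB202190 and 11.35 with DMSO in mature DC, against 4.95 with SB202190 (below background) and 5.87 with DMSO in pre-DC, a log2 difference of 6.32 (SE 0.39, adjusted p = 0.000208, limma). Marcks, a link between membrane and actin, gained 2.77, and Tspan3, a tetraspanin, gained 3.10. The exception was Itgae, the integrin CD103 of DC that reside in epithelia and of their migratory form, which fell to 6.16 and 5.52 in mature DC, against 8.71 and 8.61 in pre-DC (log2 difference -2.82, SE 0.19). Among 13 integrin genes, 8 rose, led by Itgb5 (2.56), which pairs with alpha V in the uptake of dying cells, and the other call downwards was Itga2b (-1.69), the megakaryocyte integrin CD41.

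Antigen presentation gained in both branches. Of 12 MHC class II and loading genes tested, 11 were higher and none was lower, with a median of 1.23. H2-Eb1, a class II beta chain, stood at 15.02 and 14.88 in mature DC, against 13.36 and 12.99 in pre-DC (log2 difference 1.78, SE 0.16, adjusted p = 0.000511, limma), and H2-Aa, an alpha chain, gained 1.81. The largest changes were in Ctss (3.49, SE 0.16), the protease cathepsin S that trims the invariant chain, and H2-Oa (2.51, SE 0.15), a modulator of peptide exchange. Levels of the 2 mature arrays lay above those of the 2 pre-DC arrays for each of these. Ciita, the class II transactivator, and the peptide exchange genes H2-DMa, H2-DMb1 and H2-DMb2 were higher in mature than in pre-DC but highest in immature DC. For Ciita the levels were 10.72 and 10.17 in mature DC, 11.36 and 10.71 in immature DC and 9.44 and 8.96 in pre-DC. Ifi30, the thiol reductase of antigen processing, did not pass (0.38, adjusted p = 0.104).

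On the class I side 12 of 16 tested genes were higher and 2 were lower, with a median of 0.92. H2-K1, a classical heavy chain, gained 2.28 (SE 0.16), Nlrc5, the class I transactivator, 1.71, and the immunoproteasome subunit Psmb9 1.47. The 2 members that fell, Calr (-1.52, SE 0.21) and Pdia3 (-1.08, SE 0.15), are general chaperones of the endoplasmic reticulum that also serve peptide loading. H2 genes are close relatives of each other, and a probe may read more than its own gene.

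Chemokines split. Of 14 tested, 10 rose and 4 fell. Ccl5 had levels of 14.75 and 14.39 in mature DC, against 7.11 and 7.94 in pre-DC. Cxcl1, which attracts neutrophils, was below background in pre-DC and at least 43.3-fold higher in mature DC, and Ccl22, which draws T cells bearing CCR4, was at least 18.3-fold higher. Pf4 (3.79, SE 0.18) and Ppbp (3.66, SE 0.34), chemokines best known from platelets, rose as well. The 4 that fell attract monocytes: Ccl4 stood at 9.30 and 9.54 in mature DC, against 11.86 and 11.38 in pre-DC (log2 difference -2.20, SE 0.22, adjusted p = 0.000692, limma), Ccl3 differed by -0.89, and Ccl7 and Ccl2 sank below background, at least 2.16-fold and 2.1-fold lower. Of 7 chemokine receptor genes, Ccr7, Cx3cr1 (3.30), Ccrl2 (3.03) and Ccr2 (1.63) rose and the neutrophil receptor Cxcr2 fell (-4.12, SE 0.26). Ccr2 had a mean of 8.72 in mature DC, below its 10.40 in immature DC.

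Of 14 cytokine genes tested, 10 rose and 1 fell. Il1b, which encodes the IL-1b that was also added for maturation, stood at 13.91 and 13.95 in mature DC, against 9.71 and 10.24 in pre-DC (log2 difference 3.96, SE 0.18, adjusted p = 0.000123, limma). The related Il1a gained 4.59 (SE 0.18), Vegfa, an angiogenic factor, 4.04, and Il15, a factor for memory T cells and NK cells, 2.99. Il6 (at least 2.29-fold) and Il33 (at least 2.22-fold) appeared above background. Tnf, which encodes the other cytokine added, ran against the rest, with 7.38 and 7.88 in mature DC, against 9.83 and 10.00 in pre-DC (log2 difference -2.29, SE 0.17, adjusted p = 0.00029, limma). Il12a, a subunit of IL-12, differed by 0.85 between the ends, yet was below background on both immature arrays.

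NF-kB genes are shown with their promoters because both cytokines of the maturation cocktail signal through this factor. Of 17 subunits, inhibitors and regulators tested, 13 were higher and none was lower, with a median of 1.63. Map3k14, the kinase NIK of the noncanonical pathway, stood at 11.92 and 11.20 in mature DC, against 7.68 and 7.96 in pre-DC (log2 difference 3.74, SE 0.26, adjusted p = 0.000263, limma). Traf1, an adaptor of TNF receptors, gained 3.02. The noncanonical subunits Relb (2.41) and Nfkb2 (2.09) differed by more than the canonical Rel (1.63) and Rela (0.64), though the difference between them was not tested. Tnfaip3, which encodes the feedback inhibitor A20, had levels of 10.51 and 9.93 in mature DC, against 8.19 and 7.88 in pre-DC (2.18, SE 0.16), and Nfkbia, the inhibitor IkB alpha, gained 1.40. Every array of mature DC was above both pre-DC arrays for these genes. Ikbke, Nfkbib, Tnfaip2 and Traf2 did not pass, with differences of 0.26 to 0.44.

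RefSeq start sites on the build GRCm38.p6 gave promoter windows of 250 bases before to 50 bases after the start for 15 of these 17 genes. The kappaB consensus, searched on both strands with overlapping matches counted, was in 10 of their 19 windows (52.6%), against 10.3% of the windows of all genes tested and 8.46% of all 32851 windows. Map3k14 and Traf1, 2 of the members with large gains, held no match, nor did Birc2, Rela, Ikbke, Nfkbib and Traf2. Tnfaip2, which did not pass, held 1, and 3 of the 10 windows were those of Nfkb2. A match is a description of these letters and not a site shown to be bound. The windows shown belong to the 2 called members with the largest net difference among those with a window that holds the motif, picked after their values were seen. They are that of Tnfaip3 at chr10:19015361-19015660 on the minus strand, with 3 matches in 2 stretches, and that of Nfkb2 at chr19:46304487-46304786 on the plus strand, with 4 matches in 2 stretches. Capitals mark the matches, and the match nearest to the start begins at -12 in Tnfaip3 and at -11 in Nfkb2.
Tnfaip3: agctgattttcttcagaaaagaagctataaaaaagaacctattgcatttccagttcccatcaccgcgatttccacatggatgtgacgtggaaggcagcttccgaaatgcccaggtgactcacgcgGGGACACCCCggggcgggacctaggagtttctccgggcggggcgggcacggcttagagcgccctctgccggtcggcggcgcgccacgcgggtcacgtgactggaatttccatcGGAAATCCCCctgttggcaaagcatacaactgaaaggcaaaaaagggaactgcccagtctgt
Nfkb2: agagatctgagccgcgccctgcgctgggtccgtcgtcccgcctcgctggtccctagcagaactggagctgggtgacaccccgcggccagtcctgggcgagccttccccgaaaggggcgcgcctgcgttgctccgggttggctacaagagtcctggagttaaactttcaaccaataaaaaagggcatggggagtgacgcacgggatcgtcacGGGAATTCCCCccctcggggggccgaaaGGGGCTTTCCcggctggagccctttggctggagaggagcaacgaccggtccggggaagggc

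Of 17 interferon-response genes tested, 13 rose and 1 fell. Gbp2, a guanylate-binding protein, had 13.78 and 13.58 in mature DC, against 8.68 and 8.52 in pre-DC (log2 difference 5.08, SE 0.15, adjusted p = 5.67e-05, limma). Mx1, an antiviral GTPase, was at least 14.1-fold higher, Mx2 at least 4.92-fold, and Gbp3 gained 2.92. Ifit2, another antiviral protein of this response, fell by 1.09 on the log2 scale (SE 0.17), and Oasl2, Ifi35 and Ddx58 did not pass. Gbp and Mx genes are also families of near copies, so the split of signal between members is uncertain.

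Transcription factors of DC mostly rose, 13 of 21 tested against 7 that fell. Stat4, which relays IL-12 and interferon signals, stood at 12.32 and 11.62 in mature DC, against 7.84 and 8.32 in pre-DC (log2 difference 3.89, SE 0.30, adjusted p = 0.000324, limma). Id2 (2.52), Irf8 (2.41) and Batf3 (2.03) are needed for conventional DC, in particular the cross-presenting kind, and all 3 rose. Mycl, the MYC family member of DC, rose by 2.49, whereas Myc itself sank below background and was at least 2.13-fold lower. The factors that fell included Klf4 (-1.89, SE 0.20), a factor of monocytes, Pparg (-1.17), Cebpa (-1.01), a factor of granulocyte and monocyte progenitors, and Spi1 (-0.49, adjusted p = 0.0409), which encodes PU.1.

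Receptors for growth factors and the feedback of cytokine signalling changed with them. Of 19 receptor genes, 11 rose and 2 fell. Il7r, a receptor chain for IL-7 and TSLP, gained 3.80 (SE 0.22), Csf1r, the M-CSF receptor, 2.49, and Csf2rb2, a beta chain of the IL-3 receptor, 2.31. Csf2ra, the GM-CSF receptor alpha chain, did not pass (0.27, adjusted p = 0.206). The receptors that fell were Csf3r, for G-CSF (-2.53, SE 0.17), and Il1r2, the decoy receptor for IL-1 (-1.32, SE 0.18). In the feedback list 12 of 17 rose, with Socs2 (2.62) and the MAP kinase phosphatases Dusp5 (2.61) and Dusp1 (2.55) among them, and 4 fell, with Dusp2 the lowest (-2.23, SE 0.38) and Cish, a STAT5 target, at -0.72.

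Genes of uptake and digestion did not fall as a group over the whole course. Of 15 scavenger and phagocytic receptor genes tested, 11 were higher and 2 were lower. Cd14, a co-receptor for bacterial lipopolysaccharide, stood at 14.09 and 14.47 in mature DC, against 8.95 and 9.63 in pre-DC (log2 difference 4.99, SE 0.16, adjusted p = 6.93e-05, limma). Mertk, a receptor for dying cells, was at least 10.7-fold higher, and Marco, a scavenger receptor, at least 4.61-fold. Stab1 was called lower (-1.49), but 2 other detected probes of it read 2.81 and 2.34, so its direction is uncertain. Of 20 lysosomal genes 14 rose, led by Ctsa (5.81, SE 0.17) and Ctsk (4.18), which encodes cathepsin K and was above background on 1 of the 2 pre-DC arrays. The only one to fall was Ctse (-1.36, SE 0.16), cathepsin E, and 5 did not pass.

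C-type lectins, which bind sugars on microbes and cells, were mixed, with 8 of 15 higher and 4 lower. Ly75, the uptake receptor DEC-205, gained 2.24 (SE 0.35). Clec5a (-2.09, SE 0.16), Mgl2 (-1.09) and Cd209a fell. Mrc1, the mannose receptor, had 8.02 with SB202190 and 9.64 with DMSO in mature DC, against 8.89 with SB202190 and 9.77 with DMSO in pre-DC, and did not pass (-0.50, adjusted p = 0.0991). Of 8 Fc receptor genes, Fcgr1, Fcgr3 and Fcgr2b rose by 0.87 to 1.08 and Fcer1a (-3.83), Fcgr4 (-2.21) and Fcer2a (-0.81) fell. For Fcgr2b, 2 other detected probes read -0.66 and -0.52. The complement genes C1qa, C1qb and C1qc, made by macrophages and by some DC, were all higher. C1qc stood at 10.87 and 10.80 in mature DC, against 6.53 with SB202190 and 5.24 (below background) with DMSO in pre-DC (4.95, SE 0.30), after 12.49 and 12.01 in immature DC. The macrophage markers moved the same way as these groups, and their part in them was not tested.

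Among genes of lipid handling 11 of 16 rose and 3 fell. Pltp, a phospholipid transfer protein, was at least 16.6-fold higher, Apoc2, the cofactor of lipoprotein lipase, gained 3.49, and Fabp5, a fatty acid carrier, gained 3.32. The members that fell were Pparg, its target Angptl4 (-1.14), an inhibitor of lipoprotein lipase, and Abcd2 (-1.09), a peroxisomal transporter. Of 13 sterol synthesis genes none rose, 10 did not pass and 3 fell, a share below the 28.9% of all genes tested. Fdps, a farnesyl diphosphate synthase, was the lowest (-2.11, SE 0.15).

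Metabolism of amino acids with effects on T cells rose, 10 of 14 genes against 2 that fell, with a median of 2.67. Arg1 degrades arginine, and Slc7a2, a transporter of arginine, stood at 11.16 and 11.25 in mature DC, against 5.46 and 6.05 in pre-DC (log2 difference 5.45, SE 0.19, adjusted p = 7.55e-05, limma). Nos2, the nitric oxide synthase that competes for arginine, was at least 4.88-fold higher. Aldh1a2, which makes retinoic acid, was at least 14-fold higher, and Acod1, which makes itaconate, gained 4.11 (SE 0.24). Il4i1, a secreted amino acid oxidase, gained 4.31 (SE 0.48), and Ido1, which degrades tryptophan, 1.05 (SE 0.22). Kmo, an enzyme further down that route, sank below background (at least 1.4-fold lower), as did Bcat1 (at least 1.81-fold lower), a transaminase of branched-chain amino acids.

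Genes of glycolysis rose for the most part and those of oxidative phosphorylation did not. Of 16 glycolysis genes 13 were higher and 2 were lower. Pfkl, a phosphofructokinase, had 12.15 and 12.35 in mature DC, against 9.80 and 9.92 in pre-DC (log2 difference 2.39, SE 0.15, adjusted p = 0.000222, limma), and Slc2a1, the glucose transporter GLUT1, gained 1.91. Slc16a3, an exporter of lactate, was at least 5.37-fold higher. The isoforms that fell were Slc2a3, or GLUT3 (-1.80), and Hk3 (-1.81), a hexokinase of granulocytes. Of 20 genes of oxidative phosphorylation 1 was higher and 6 were lower, and all but Ndufa4 (-2.47, SE 0.16) lay within 1 log2 unit of no change. Cytosolic ribosomal protein genes barely moved, with 2 of 16 higher, none lower and a median of -0.04 (0.16 with 75th percentile scaling). Among 17 antioxidant genes 7 rose, led by Mt2 (at least 4.05-fold), a metallothionein, and Hmox1 (2.19), heme oxygenase 1, and 3 fell, led by Nqo1 (-1.94), a quinone reductase. In the list of unfolded protein and amino acid stress 4 of 19 rose and 11 fell. The falls were led by Phgdh (-4.47, SE 0.16) and Psat1 (-3.82, SE 0.15), which make serine, and by Chac1 (at least 11.1-fold lower). Ddit4, a brake on mTOR, rose most (3.28, SE 0.15).

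The largest losses of the course were granule genes of neutrophil precursors. All 9 neutrophil genes tested fell, with a median of -5.94. Mpo, myeloperoxidase, had 5.01 with SB202190 (below background) and 5.79 with DMSO in mature DC, against 14.86 with SB202190 and 14.93 with DMSO in pre-DC (log2 difference -9.49, SE 0.21, adjusted p = 5.06e-05, limma). Elane, neutrophil elastase, stood at 5.65 and 6.01 in mature DC, against 13.97 and 14.27 in pre-DC (-8.29, SE 0.15), and Prtn3, proteinase 3, at 6.21 and 5.79, against 13.82 and 14.07 (-7.95, SE 0.21). The stages were far apart on every array for these genes. Ctsg, cathepsin G, was at least 280-fold lower and Ms4a3, a protein of granulocyte and monocyte progenitors, at least 146-fold lower. Genes of later granules fell less far, Ltf, lactoferrin, by 5.69, Camp, the cathelicidin, by 5.68 and Ngp by 5.94 on the log2 scale. The cytoplasmic proteins S100a9 (-3.05) and S100a8 (-1.73) also fell but remained among the detected genes, with S100a8 at 13.38 and 13.40 in mature DC, against 15.11 and 15.14 in pre-DC. The summed intensity of the list was 15698 and 16052 on the mature arrays, against 224802 and 236502 on the pre-DC arrays. Other genes with large losses included Cd177 (-6.71), a neutrophil surface protein, Ifitm6 (-5.63), Retnlg (-5.46), a resistin-like protein of neutrophils, Plac8 (-4.35) and Slc40a1 (-4.70), the iron exporter ferroportin.

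Most marker genes tested for other lineages of marrow fell as well. All 7 mast cell and basophil genes fell, with a median of -3.62, led by Prss34, a protease of basophils (-5.00, SE 0.19), and Hdc, which makes histamine (-4.92, SE 0.22). The globin genes Hbb-bt (at least 106-fold lower) and Hba-a1 (at least 64.8-fold lower) sank below background, and Hbb-bs stood at 6.65 and 5.71 in mature DC, against 11.98 and 12.40 in pre-DC. Globin genes are near copies of each other, and their probes may share signal. Of 5 B lineage genes tested 4 fell, all below background in mature DC, with Cd79b, a chain of the B cell receptor complex, at least 38.2-fold lower and Vpreb3, of the pre-B cell receptor, at least 11.3-fold lower. Nkg7, of cytotoxic granules, was at least 33.7-fold lower and Thy1, a marker of T cells and some progenitors, fell by 3.90 on the log2 scale. The other NK cell marker tested, the receptor gene Klrd1, was higher (1.26, SE 0.19, adjusted p = 0.00315, limma), a call lost without either mature array (adjusted p = 0.0511 and 0.0563). Markers of plasmacytoid DC were mixed, with 4 tested and a median of 0.60. Siglech was at least 4.87-fold lower, Bst2 (1.75) and Tcf4 (1.73) rose, and 1 did not pass. Of 3 eosinophil genes tested, Epx (-2.52, SE 0.28) and Prg2 (-1.11, SE 0.16) fell, and Ear10 was not called (0.08). Loss of expression and removal of these cells with the nonadherent fraction cannot be told apart here.

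Genes of cell division fell together. All 16 mitosis genes tested and all 24 DNA replication genes tested were lower, with medians of -2.94 and -2.61. Plk1, a kinase of mitotic entry, had levels of 7.18 and 7.93 in mature DC, against 11.30 and 11.22 in pre-DC (log2 difference -3.70, SE 0.23, adjusted p = 0.000218, limma), and Cdc20, an activator of the anaphase-promoting complex, had 7.81 and 8.37, against 11.62 and 11.68 (-3.56, SE 0.19). Cdc6, which loads the replicative helicase, sank below background and was at least 11.5-fold lower, and Mcm2, a subunit of that helicase, stood at 6.88 and 6.82 in mature DC, against 10.32 and 10.40 in pre-DC (-3.51, SE 0.15). No mature array reached a pre-DC array for these genes. Cdca7, a chromatin factor of dividing cells outside both lists, fell further (-6.04, SE 0.18). Kif23, a kinesin of cell division, is uncertain, since its brightest probe read -3.07 and another detected probe 0.13.

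Mitotic genes commonly carry a short promoter element, the CHR, through which they are repressed in resting cells, so their promoters are shown. Of the 16 genes, 14 had RefSeq windows, and TTTGAA, the CHR core searched on both strands, was in 13 of their 15 windows (86.7%), against 12.1% of the windows of all genes tested and 17.9% of all windows. The windows of Birc5 and Nusap1 did not hold these letters. The pair shown belongs to the called members with the largest net difference that hold the motif, again picked after their values were seen. Plk1 lies at chr7:122159185-122159484 on the plus strand, with its match beginning at +30 from the start. Cdc20 lies at chr4:118437294-118437593 on the minus strand, with its match beginning at -18. Capitals mark the match, written as it reads on the gene's strand.
Plk1: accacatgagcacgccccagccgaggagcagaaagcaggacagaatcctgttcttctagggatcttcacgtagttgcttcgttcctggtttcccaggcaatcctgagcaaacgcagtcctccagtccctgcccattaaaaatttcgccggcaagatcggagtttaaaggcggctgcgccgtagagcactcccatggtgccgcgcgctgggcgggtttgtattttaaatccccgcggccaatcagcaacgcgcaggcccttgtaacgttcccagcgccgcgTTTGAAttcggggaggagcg
Cdc20: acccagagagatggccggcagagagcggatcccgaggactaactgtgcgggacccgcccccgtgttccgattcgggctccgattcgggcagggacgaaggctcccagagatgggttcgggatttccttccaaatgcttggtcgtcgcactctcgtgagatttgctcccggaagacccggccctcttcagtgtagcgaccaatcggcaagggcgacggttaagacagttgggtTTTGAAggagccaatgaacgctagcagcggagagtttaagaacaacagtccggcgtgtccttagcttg

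Regulators of cell cycle exit moved in both directions, 10 of 17 higher and 5 lower. Of the lower ones, Cdkn2c is uncertain, since its brightest probe read -0.80 and another detected probe 0.67. Cdkn2b, an inhibitor of CDK4 and CDK6, was below background in pre-DC and at least 19.8-fold higher in mature DC. Gadd45b, a stress-response protein, gained 2.72 (SE 0.20) and Cdkn1a, which encodes p21, 1.50 (SE 0.18). Among D-type cyclins, Ccnd1 (-2.64, SE 0.34) and Ccnd3 (-2.11, SE 0.15) fell and Ccnd2 rose (1.15, SE 0.18). Ribosome biogenesis and MYC genes fell in 11 of 15 and rose in 2, with a median of -1.66. Nop58, a nucleolar protein, had 8.80 and 8.49 in mature DC, against 11.38 and 11.49 in pre-DC (-2.79, SE 0.18). Of 14 progenitor genes 10 fell and 2 rose. Gfi1 (-4.24, SE 0.29) and Cebpe (-4.04, SE 0.15), factors of granulocyte development, fell far, Egfl7 was at least 12.3-fold lower, and Sox4 (1.16) and Tal1 (0.90) rose.

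In the list of BCL2 family and survival genes, which holds genes that prevent cell death and genes that promote it, 8 of 15 rose and 4 fell. The gains included both inhibitors of cell death, Mcl1 (1.34) and Bcl2a1d (1.21), and its promoters, Bmf (3.36, SE 0.15), Pmaip1 (1.80) and Bcl2l11 (1.63). Bcl2 itself fell (-1.23, SE 0.29), as did Bid (-1.68, SE 0.15). The Bcl2a1 genes are near copies, so their separate values are uncertain. Of 12 protease inhibitors 5 rose and 4 fell, with Serpinb6b (at least 16.3-fold) and Timp1 (3.89, SE 0.15), an inhibitor of metalloproteinases, the largest gains and Serpinb1a (-3.45, SE 0.28), an inhibitor of neutrophil proteases, the largest loss.

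**Figure D2:**
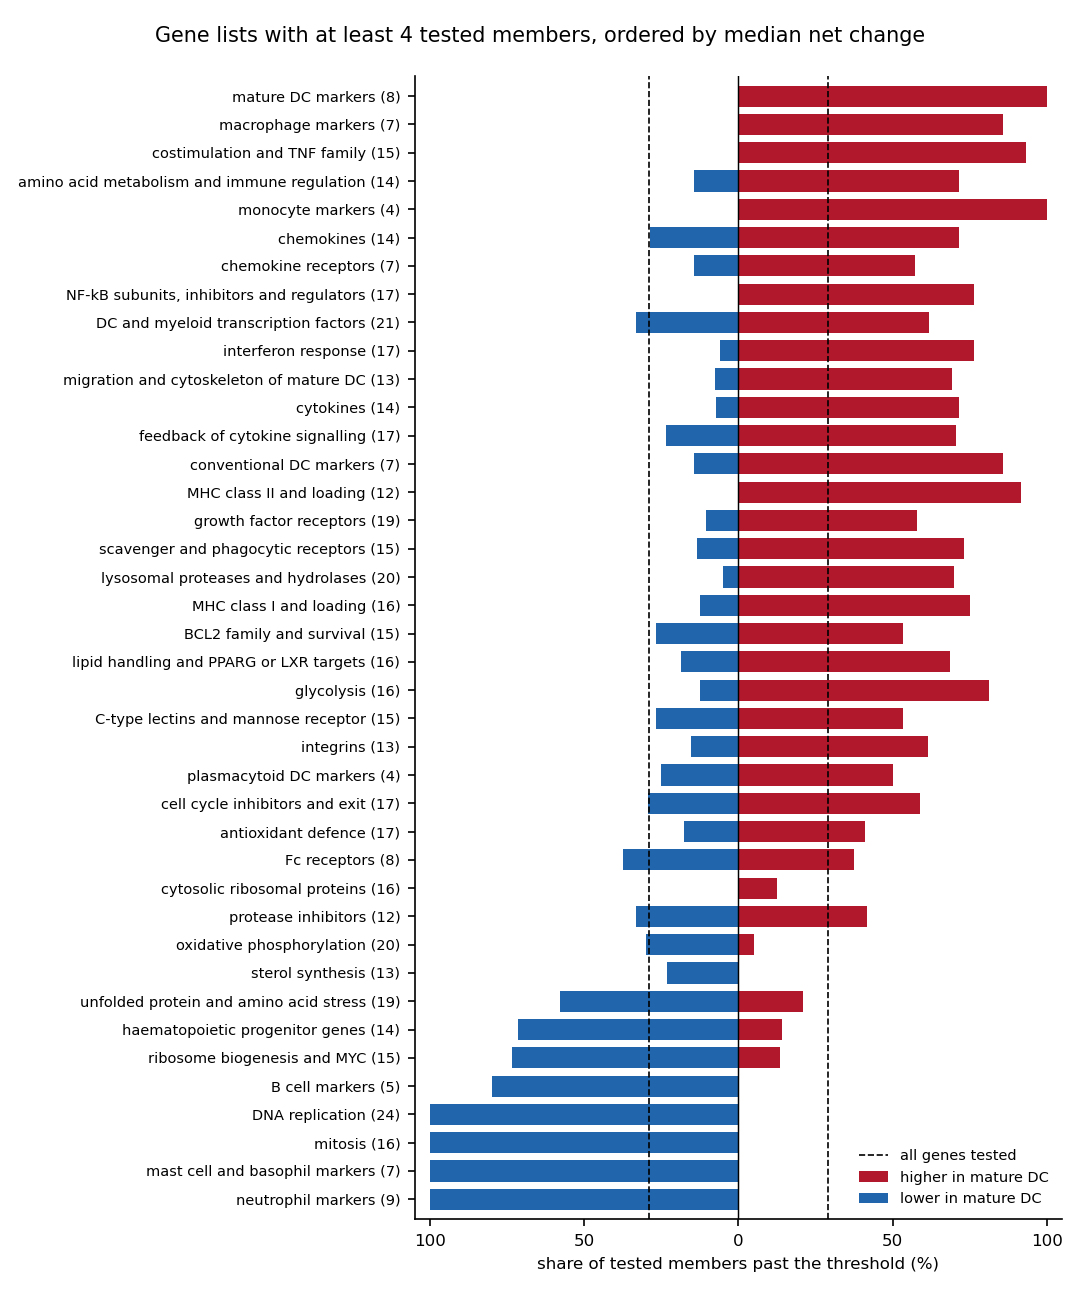
Share of the tested members of each gene list that were higher (red, to the right) or lower (blue, to the left) in mature DC, in percent, with the number tested in brackets and the lists in the order of their median net difference. Dashed lines mark 29.1% higher and 28.9% lower over all genes tested. All mitosis, DNA replication, neutrophil and mast cell genes were lower, all mature DC markers were higher, and ribosomal protein genes stayed under both lines.

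The immature DC arrays show at which step each net change was made. A called gene was put in a class by the part of its net log2 difference already present in immature DC. The limits were 25%, 75% and 125%, and a share on the log2 scale is not a share of intensity. These classes are descriptions of size with no test, and all contrasts share arrays with each other. Of the 2613 genes called higher, 947 (36.2%) had made the change by the first step, 1095 (41.9%) changed over both steps, 312 (11.9%) changed in maturation, 200 (7.65%) went beyond their end level and came back in part, and 59 (2.26%) first moved the other way. Of the 2589 called lower, 984 (38%) belonged to the first step, 1211 (46.8%) to both, 178 (6.88%) to maturation, 138 (5.33%) overshot and 78 (3.01%) moved the other way first. Whether the first step or both steps held more genes rests on these limits: with 0.33 and 0.67 of the net difference as the lower 2 limits, the first step held 1258 of the higher and 1319 of the lower genes, and both steps 744 and 834.

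**Figure D3:**
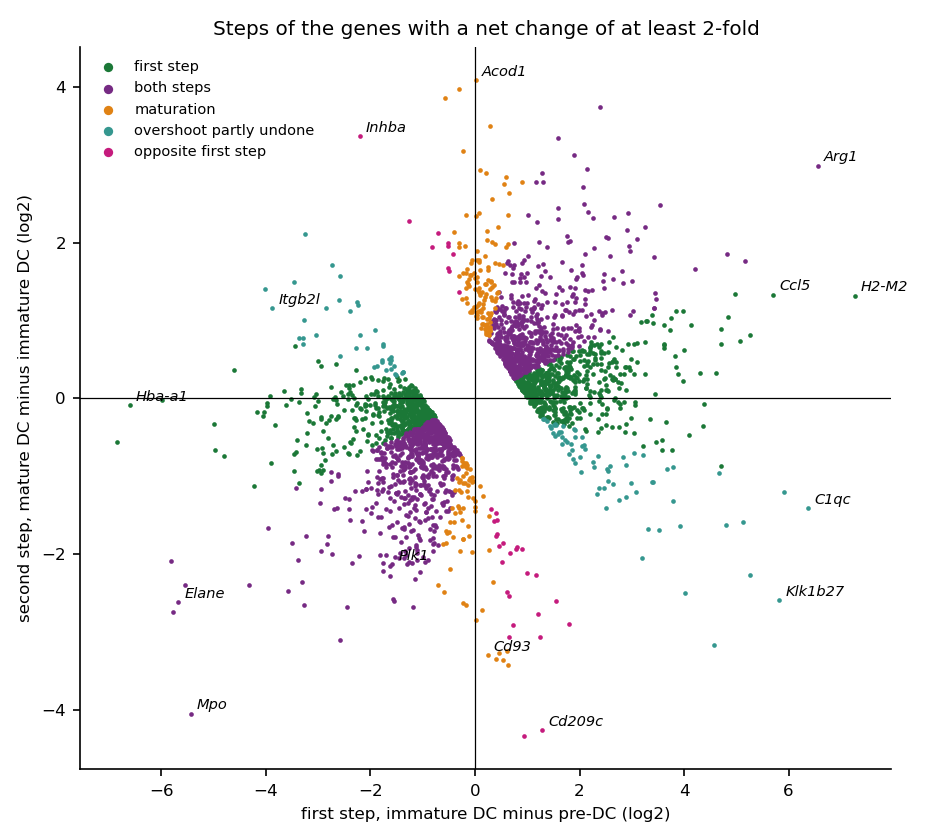
First step (immature DC minus pre-DC, horizontal axis) against the second step (mature DC minus immature DC, vertical axis) on the log2 scale for the called genes with a net difference of at least 2-fold, coloured by class. Arg1 and Mpo lie far along both axes, Hba-a1 along the first step alone and Acod1 along the second alone, while C1qc and Klk1b27 lie right of and below the centre.

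Much of the log2 rise in genes of mature DC was present before TNF-a and IL-1b were added. Of the 8 mature DC genes 5 had reached at least 75% of their net log2 gain in immature DC, among them Ccr7. Its levels were 12.10 and 11.35 in mature DC, 10.75 and 10.02 in immature DC and 4.95 and 5.87 in pre-DC. Of the class II genes that rose, 7 of 11 were of the first step too, and of the class I genes 8 of 12. The B lineage genes that fell, the globins, Nkg7 and Thy1 had made at least 75% of their log2 loss by then, though Nkg7 and Cd79b were still detected on both immature DC arrays. Hba-a1, Vpreb1, Vpreb3 and Igll1 were below background on all 4 arrays of mature and immature DC, so a further fall could not be measured in them. Neutrophil genes fell over both steps in all 9 cases, and so did 15 of the 16 mitosis genes and 20 of the 24 replication genes. Elane had 5.65 and 6.01 in mature DC, 8.19 and 8.69 in immature DC and 13.97 and 14.27 in pre-DC, and the second step alone took it down by a further 2.61 on the log2 scale. The first step of Elane (-5.68) lay between those of Cd79b (-4.98) and Hba-a1 (-6.61). The classes thus do not rank genes by the size of the first step.

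**Figure D4:**
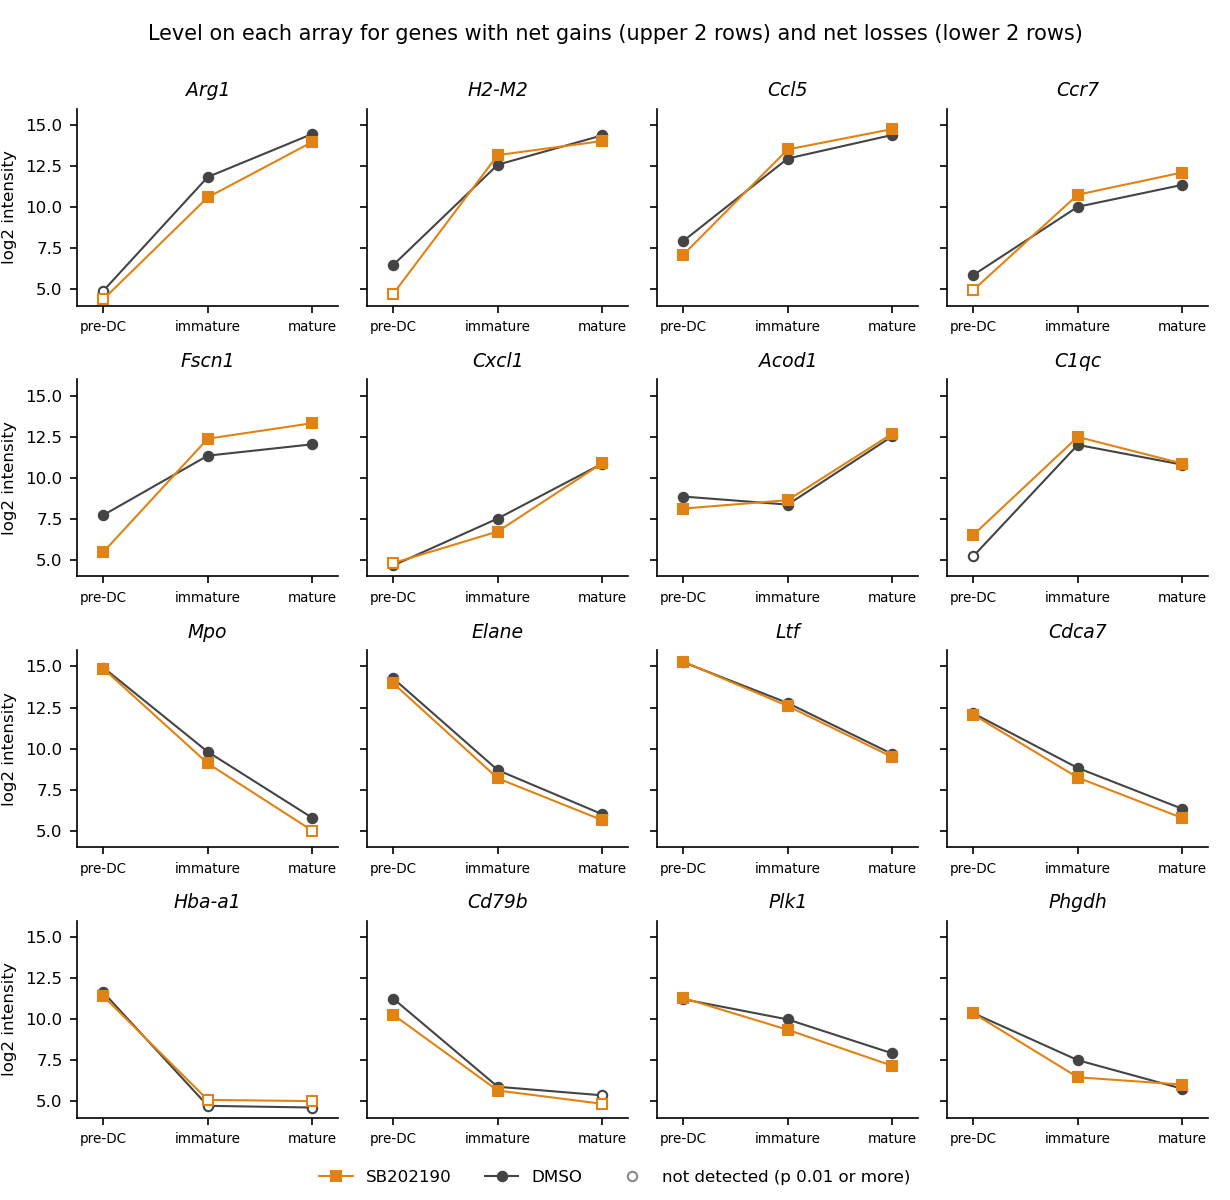
Log2 levels of 16 genes on the 6 arrays in the order pre-DC, immature DC, mature DC, with SB202190 (squares) and DMSO (circles) as separate lines and open symbols where a gene was not detected. Ccl5, Fscn1 and Hba-a1 had made most of their log2 change in immature DC, Acod1 rose after it, C1qc peaked there, and Mpo, Elane, Ltf and Plk1 went down at both steps.

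A smaller set waited for maturation. Acod1 had 12.68 and 12.52 in mature DC, 8.64 and 8.37 in immature DC and 8.13 and 8.86 in pre-DC. The 5 largest gains of this class were Acod1, the platelet chemokines Pf4 and Ppbp, Hilpda (3.69), a lipid droplet protein induced by low oxygen, and Cfb (3.44), a factor of the alternative complement pathway. Of the 13 NF-kB genes that rose 5 belonged here, Tnfaip3, Nfkbia, Nfkbiz, Bcl3 and Tnip1. Tnfaip3 had 10.51 and 9.93 in mature DC, 8.69 and 8.29 in immature DC and 8.19 and 7.88 in pre-DC. All 4 monocyte chemokines that fell, Ccl2, Ccl3, Ccl4 and Ccl7, did so in this step. Further losses in maturation were Tox, a nuclear factor known from T cells (at least 5.74-fold lower), Cd93 (-3.06), a receptor of progenitors and phagocytes, F2rl2 (-2.94), a thrombin receptor, and Vrk1 (-2.85), a kinase of dividing cells.

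In other genes maturation took back part of the first step. The C1q genes, Klk1b27 (3.23) and Dmrta2 (at least 8.11-fold) were higher at the end than at the start but highest in immature DC. Klk1b27 is 1 of many close kallikrein copies. Some losses were also deepest in immature DC: Lcn2, the iron-binding protein lipocalin 2, had 12.86 and 12.53 in mature DC, 11.75 and 12.25 in immature DC and 15.26 and 15.31 in pre-DC, and Mmp9, a gelatinase, had 10.52 and 10.25 in mature DC, 8.69 and 9.27 in immature DC and 12.90 and 13.10 in pre-DC. Itgb2l (-2.72) and Cst7 (-2.60), an inhibitor of cathepsins, did likewise. Among genes whose first step opposed the net change, Cd209a had 4.63 and 4.51 in mature DC, 8.36 and 6.90 in immature DC and 7.56 and 6.41 in pre-DC. Cd209c (at least 5.44-fold lower), a relative of it, Septin3 (at least 7.44-fold lower), Egr3 (at least 2.83-fold lower), an early response factor, and Klf4 also had their highest mean in immature DC. In the other direction Inhba, the activin A chain, had 11.65 and 11.16 in mature DC, 7.96 and 8.10 in immature DC and 10.20 and 10.28 in pre-DC, and Rbpms (1.49), Gsta3 (1.45), Pdxp (1.44) and C1rl (1.42) likewise had their lowest mean in immature DC.

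A comparison of the ends hides changes that maturation undid. Among genes detected on 2 or more of the 6 arrays, those were counted that moved at least 2-fold at the first step and at least 2-fold back at the second, in both treatments, with a net difference of less than 0.5 on the log2 scale. Of 9221 genes, 38 went up and then down and 14 went down and then up. For all 52 both steps were called in the 6-array fit, but they were chosen by size on the same arrays, so the calls add no evidence. Egr1, an early response transcription factor, had 8.01 and 8.70 in mature DC, 10.97 and 11.75 in immature DC and 8.99 and 8.65 in pre-DC. Cd207, the lectin langerin, was near background at both ends and reached 9.35 and 7.46 in immature DC. Gpr183, a receptor for oxysterols that guides DC, had 9.33 and 9.33 in mature DC, 10.85 and 10.38 in immature DC and 8.99 and 9.04 in pre-DC.

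The ribonucleases Rnase2a, Ear3 and Ear10 shared this course, with Ear3 at 10.68 and 12.11 in mature DC, 13.38 and 13.93 in immature DC and 11.10 and 11.87 in pre-DC. They are near copies known from eosinophils and macrophages, and the split of signal between them is uncertain. The kallikrein Klk1b22, the tubulin-binding Tppp3, Tcea3, an elongation factor, and Fcgrt, the neonatal Fc receptor, also rose and returned. In the opposite direction the acute phase genes Hp, haptoglobin, and Orm1 dipped. Hp had 12.76 and 13.33 in mature DC, 10.45 and 11.04 in immature DC and 13.32 and 13.75 in pre-DC, and its net difference of -0.49 was small but called (adjusted p = 0.0393, limma). That call was lost without the pre-DC array with SB202190 (adjusted p = 0.112) and without the mature array with SB202190 (0.0733) or with DMSO (0.0557). Slc11a1, a metal transporter of phagosomes, had 12.31 and 12.60 in mature DC, 10.76 and 11.05 in immature DC and 12.33 and 12.59 in pre-DC. Fpr2, a receptor for formyl peptides, Msantd3, Schip1, Ifnlr1, a receptor chain for lambda interferons, Chst15 and Fbxo30 followed the same path.

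**Figure D5:**
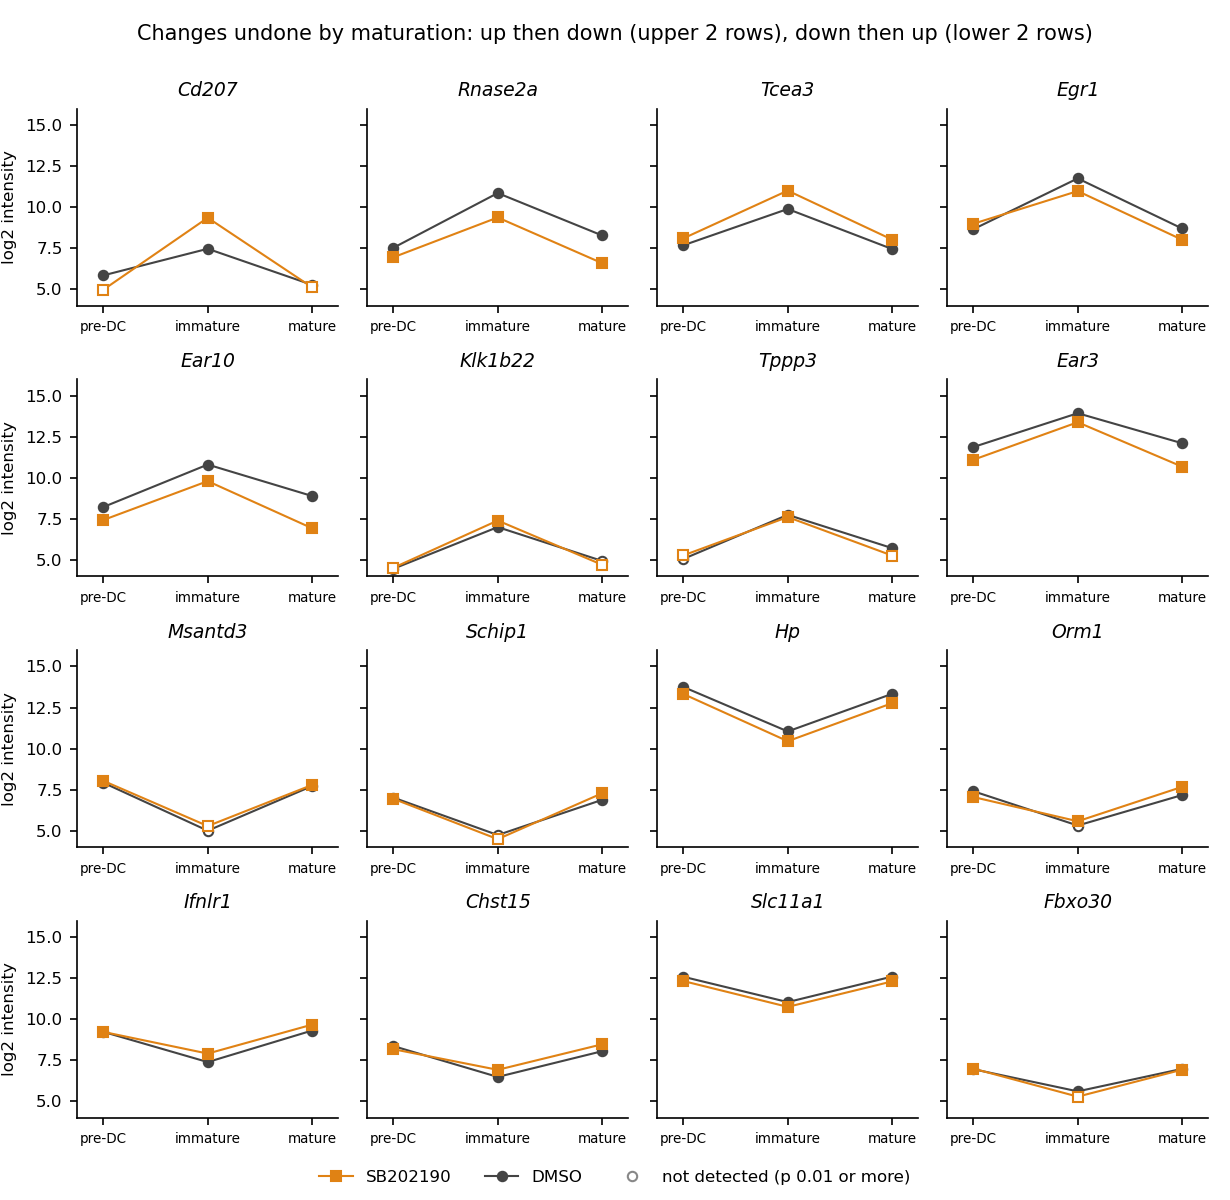
Log2 levels of 16 genes whose first-step change was undone by maturation, in pre-DC, immature DC and mature DC, with SB202190 (squares) and DMSO (circles) as separate lines and open symbols where a gene was not detected. Egr1, Cd207 and Tcea3 peak in immature DC, and Hp, Msantd3 and Slc11a1 have their lowest level there.

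Of the 8971 genes tested, 1155 had net differences of opposite sign in the SB202190 pair and the DMSO pair of arrays. None of these was among the 5202 called genes. The fit takes treatment as a block and cannot call a gene at this threshold when its pairs differ in sign. Their absence is thus fixed by the model and says nothing about agreement between the treatments. Of the called genes, 207 differed in size between the pairs by 2-fold or more. With 1 array for each stage and treatment these differences have no replicate check. The largest was that of Fscn1, with a net log2 difference of 7.84 in the SB202190 pair and 4.31 in the DMSO pair, and Cd83 had 6.51 in the SB202190 pair and 3.42 in the DMSO pair. Il4i1 gained 5.37 with SB202190 and 3.24 with DMSO. For all 3 the pre-DC array with SB202190 was the lowest of the 4 arrays and the mature array with SB202190 the highest. Apoe, an apolipoprotein of macrophages, ran the other way, with 0.93 in the SB202190 pair and 2.85 in the DMSO pair, and so did Fcmr, an Fc receptor for IgM, which fell by 1.45 with SB202190 and by 3.58 with DMSO.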

How the data were processed

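The members of this comparison and the gene lists were chosen with earlier results of these data known, so a count over a list is a description and no independent evidence. The authors deposited a table of unnormalized intensity values, which per the file headers average the beads of a probe. Beside each intensity it holds a detection p-value, per the file headers. Trizol, RNeasy columns and DNase I served to prepare RNA, and an Ambion MessageAmp kit to make biotin-labelled cRNA, per the labels' protocols. A second deposited table holds the authors' processed intensities on a linear scale (lowest -51.1, highest 42993, column medians 7.85 to 7.89). It served as an alternative only, since neither its making nor the scanner software was given in the sources used here. Its columns ranked probes as their own arrays did (correlation 1) and other arrays less closely (at most 0.881).

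Background was removed by normexp in limma 3.58.1 (R 4.3.3) from the detection p-values with an offset of 16, and intensities were quantile normalized over the 6 arrays and put on the log2 scale. Of 45281 probes, 34885 had 1 gene symbol in the platform annotation, 18 had several and 10378 had none, and 99.8% of Entrez identifiers matched RefSeq with 0 symbols changed. For 9172 of 19057 genes with more than 1 probe, the brightest over the 6 arrays was used. Of the called genes, 1941 had another detected probe, and 125 of 2813 such probes had the opposite sign, 12 of them by 2-fold or more.

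Genes with a detection p under 0.01 on at least 2 of the 4 arrays entered a limma fit of stage with treatment as a block (1 residual and 4.48 prior degrees of freedom), with Benjamini-Hochberg adjustment at 0.05. Since no label tells whether cultures were independent, p-values here speak of the spread between these arrays alone. With treatment as a block, that spread is how far the net changes of the SB202190 pair and the DMSO pair differ, moderated across genes. It may be technical or hold an effect of the inhibitor on the change, and these cannot be told apart. Steps were called in the same model over 6 arrays. The fit was tested on simulated data. The number of arrays limits the precision. Named genes are the 15 highest and 15 lowest net differences detected on all 4 arrays, the 12 brightest gained and lost genes, up to 4 called members of each list plus those that oppose it, 5 per step class and direction and 8 undone changes per direction. Other members are named as examples, chosen after their values were seen. Promoter windows come from RefSeq (GRCm38.p6). The 45 lists held 731 entries, of which 669 had a probe and 556 were tested.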

Additional observations from a re-analysis of the deposited data

Results flagged for a closer look

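For 2 gene lists the median net log2 difference, mature DC minus pre-DC, had opposite signs in the treatment pairs. The 8 Fc receptor genes had a median of -0.0088 in the SB202190 pair and 0.37 in the DMSO pair. The 12 protease inhibitors had a median of 0.29 in the SB202190 pair and -0.13 in the DMSO pair. Each pair is 1 array against 1 array, and the difference was not tested. No stage has the 4 arrays that a check for single outlying samples needs.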

How the results depend on the processing

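Under the alternatives run, 4391 to 5633 genes were called, and of those shared with the main setting none had the opposite sign, except 5 when all probes of a gene were averaged. With treatment left out of the model (no replicate block), 2681 genes were higher and 2716 lower. The labels give no replicate numbers, so the treatment is the pairing used. When 1 array was left out, stage and treatment were fitted over the other 5, so the lone array of its stage is assumed to vary like the other stages, with 1 residual degree of freedom. Without 1 pre-DC or mature array, 2278 to 2471 genes were higher and 2340 to 2513 lower. Without an immature array the fit is that of the 4 arrays (2613 and 2589) and checks nothing. Among the named genes none reversed, and 12 single-gene results lost their call: Fscn1 and Cd83 with trend and robust moderation (adjusted p = 0.064 and 0.0717, limma), Klrd1 without either mature array, Ndufb8 without the mature DMSO array, Gpx3 without the mature SB202190 array, and Hp under 6 settings (adjusted p = 0.0557 to 0.136). Without background correction 855 genes were higher and 812 lower by at least 2-fold, since uncorrected background compresses low levels. That setting also gave 23 and 5 undone changes (up then down, down then up), and the authors' processed values gave 24 and 8. A limit of 1.5-fold gave 97 and 43 and a limit of 3-fold 11 and 3, as fewer genes pass a wider limit. With the SB202190 arrays alone, 77 and 26 changes were undone, and 320 higher and 234 lower genes overshot. With the DMSO arrays alone, 23 genes went down and then up, and 98 higher genes first moved the other way. Class limits of 0.33 and 0.67 put 275 lower genes in maturation. Of 852 list medians over all alternatives, 206 differed from the main value by 0.2 or more (log2), and 8 had the other sign: the 16 cytosolic ribosomal protein genes with 75th percentile scaling (0.16), NK cell markers detected on all 4 arrays (1.26, Klrd1 alone), eosinophil markers with no detection filter (0.021), protease inhibitors without the mature or the pre-DC DMSO array (0.11 and 0.12) or with the SB202190 arrays alone (0.29), and Fc receptors without the mature DMSO array (-0.04) or with the SB202190 arrays alone (-0.0088). For counts from 1 treatment alone the cause was not tested. Signal near background limits the folds of genes not detected at 1 stage to bounds.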
